A study of Mus musculus with 9 samples.

Results

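The enzymes of the pentose phosphate pathway and the first enzymes of hepatic fructose handling were followed as a set of 9 genes. The genes were G6pdx, Pgls, Pgd, Tkt, Taldo1, Rpe, Rpia, Khk and Sord, taken by name, and their probes were found through the RefSeq accession carried by each spot. Of 55681 distinct probes on the array, 27656 could be named, giving 20972 genes, and each of the 9 genes had exactly 1 probe and 1 spot per array. All 9 probes were bright enough to be tested. Hepatic gene expression was measured in male mice at 20 weeks of age with 1 one-colour array per mouse, in 3 groups of 3 mice. STAM mice were C57BL/6J males that received low-dose streptozotocin, a toxin of the insulin-producing β cells, shortly after birth and a high-fat diet after weaning, and they develop diabetes, steatohepatitis and liver tumours. STAM-NON mice received no treatment, STAM-INS mice received insulin (per the methods, insulin glargine injected subcutaneously), and Normal mice were labelled only as normal (per the methods, mice outside the diet models ate CE-2 chow). Both STAM groups carry streptozotocin and high-fat diet together, so these agents cannot be told apart in any comparison with Normal mice. RNA came from liver samples, and nothing in the labels says whether a piece held tumour. The labels number the replicates without saying more, so p-values measure the spread between these samples.

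The pentose phosphate pathway draws glucose 6-phosphate away from glycolysis. In its oxidative branch, 2 dehydrogenases with a lactonase between them reduce NADP to NADPH, the electron donor for fatty acid synthesis and for the reduction of glutathione, and release ribulose 5-phosphate. In the reversible non-oxidative branch, an isomerase and an epimerase interconvert pentose phosphates, and transketolase and transaldolase shuttle carbon between them and glycolytic sugars. Fructose enters liver metabolism through ketohexokinase, and the polyol pathway makes fructose from glucose by way of sorbitol. The liver is the main site of fructose breakdown, and lipid synthesis in hepatocytes draws on NADPH from the oxidative branch.

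The share of spots well above background ran from 46.2% to 65% over the 9 arrays, and Pearson's r across tested probes ran from 0.979 to 0.991 for arrays within a group. The 6 STAM arrays lay on 1 slide and were scanned together, and the 3 Normal arrays lay on another, so slide and scan cannot be told apart from the difference between STAM and Normal mice. All 10 hepatocyte markers on a chosen list were measured, with a summed level of 5270 to 6796 times the array's 75th percentile in STAM-NON, 6512 to 7216 in STAM-INS and 7145 to 7549 in Normal mice, so the liver label was met. The pancreatic genes Prss1, Cpa1 and Pnlip were not well above background on any array, whereas Cela1 and Ctrb1 were on every array. Each value is the log2 of a processed spot signal, less the 75th percentile of its array (centred log2 signal), means are given ± SD, and a difference is the group named in front minus the other. limma gave the p-values, which were adjusted by Benjamini and Hochberg's procedure over 26277 tested probes, and a probe was called at an adjusted p below 0.05.

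In untreated STAM liver, G6pdx and Pgd, the dehydrogenases of the oxidative branch, were higher than in Normal liver, and none of the 9 genes was called lower. These were 2 of 9 genes, against a background of 16.1% of all tested probes called in either direction, 6.3% called higher and 9.76% called lower. In insulin-treated STAM liver the same comparison with Normal mice called G6pdx and Pgd higher and Sord lower, 3 of 9 genes against 13.9% of tested probes (5.16% called higher and 8.73% called lower). Between STAM-INS and STAM-NON mice none of the 9 genes was called, where limma called 0.0913% of tested probes (0.0114% higher and 0.0799% lower). At an unadjusted p below 0.05, no member passed in that comparison, and 8.78% of tested probes did. The same share was 35.8% for STAM-NON and 32.5% for STAM-INS against Normal. The median difference over the 9 genes was 0.012 for STAM-NON against Normal, 0.15 for STAM-INS against STAM-NON and 0.25 for STAM-INS against Normal, beside medians over all tested probes of -0.13, 0.025 and -0.093.

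**Figure D1:**
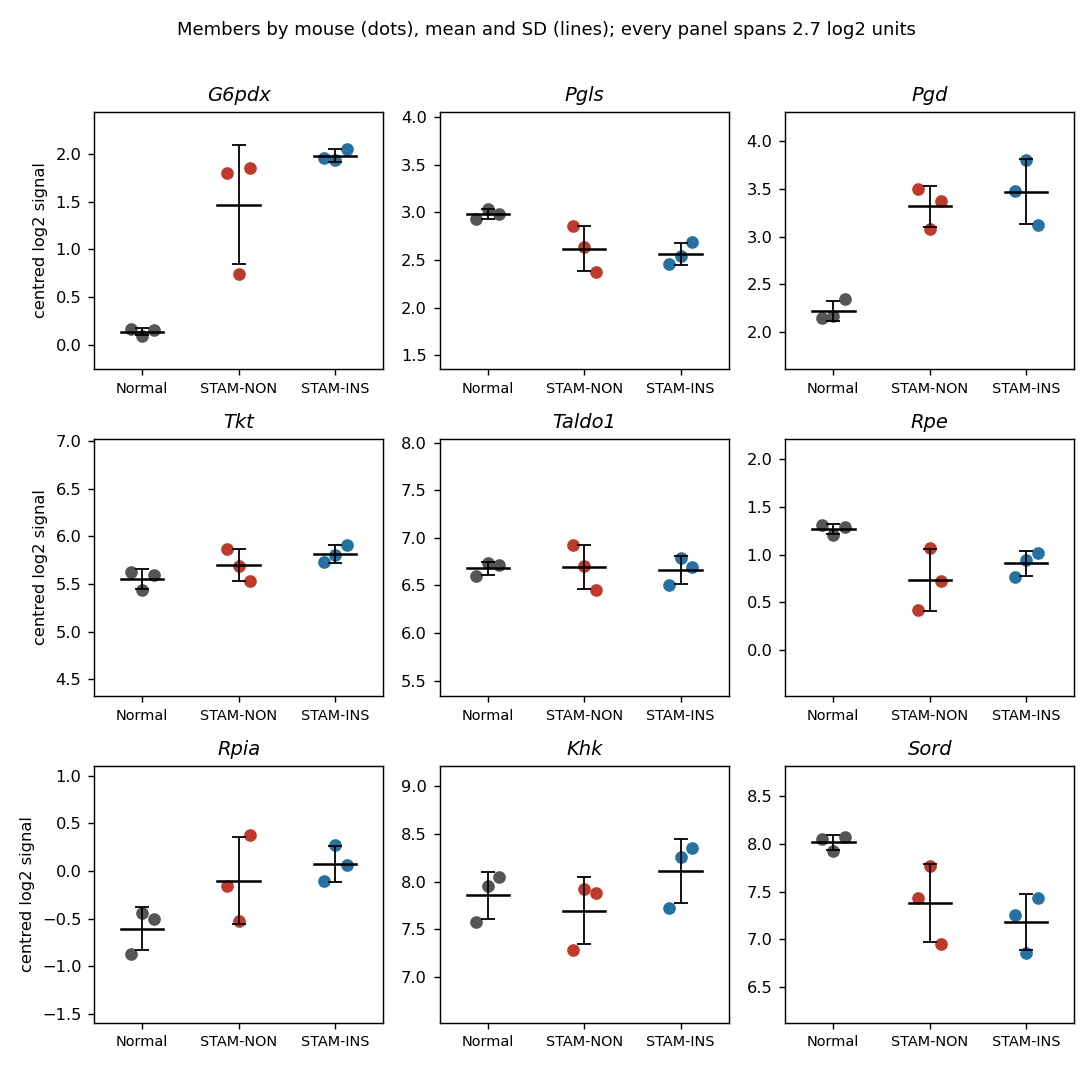
Centred log2 signal of each of the 9 genes (vertical axis, log2 units above the array's 75th percentile, every panel spanning the same height) in Normal, STAM-NON and STAM-INS mice, with 1 dot per mouse, the mean as a horizontal line and the SD as a bar (n = 3 mice per group). For G6pdx and Pgd every STAM mouse lies above every Normal mouse, whereas Taldo1 and Khk overlap across all 3 groups.

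G6pdx (chrX:74409483-74428880, build GRCm38.p6) encodes glucose 6-phosphate dehydrogenase, the committed and rate-limiting step of the pathway. Its centred log2 signal was 1.81, 0.75 and 1.86 in the STAM-NON mice, 1.96, 1.94 and 2.06 in the STAM-INS mice and 0.16, 0.094 and 0.16 in the Normal mice. The 6 STAM mice were all above the 3 Normal mice, and STAM-NON mouse 2 was below the other two untreated mice. STAM-NON mice averaged 1.47 ± 0.63 (SD, n = 3) and Normal mice 0.14 ± 0.038, a difference of 1.33 (SE 0.27, limma adjusted p = 0.019), or 2.52-fold with a 95% interval of 1.65 to 3.84. Of all tested probes, 96% had a smaller difference. STAM-INS mice averaged 1.98 ± 0.066 and exceeded Normal mice by 1.85 (SE 0.27, limma adjusted p = 0.00584), or 3.60-fold with an interval of 2.36 to 5.49. The insulin-treated mice were also all above the untreated STAM mice, but this difference of 0.51 (95% interval -0.095 to 1.12) gave a limma adjusted p of 0.623. Without STAM-NON mouse 2 it was 0.15, and the STAM-NON difference from Normal was then 1.69 (limma adjusted p = 0.0014). That difference was no longer called without STAM-NON array 1 (limma adjusted p = 0.058), without array 3 (0.0519) or without any single Normal array (0.0567 to 0.0611). STAM-NON array 2 had 47.8% of its spots well above background, beside 59.3% and 63.1% in the other STAM-NON arrays. STAM-INS arrays 2 and 3, with 47.8% and 49.8%, read 1.94 and 2.06 for G6pdx. The part of array detection in the value of STAM-NON mouse 2 was not tested. The rodent-specific copy G6pd2 has a probe of its own, which was well above background on 2 STAM-NON arrays, 1 STAM-INS array and no Normal array, and it was not tested. That probe read -5.63 to -3.76 in STAM-NON, -4.33 to -3.49 in STAM-INS and -6.05 to -5.53 in Normal mice. Whether the G6pdx probe also takes up G6pd2 transcripts was not tested.

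Pgd (chr4:149149991-149166705) encodes 6-phosphogluconate dehydrogenase, the other NADPH-producing step. The Pgd signal was 3.50, 3.08 and 3.37 in STAM-NON, 3.48, 3.80 and 3.12 in STAM-INS and 2.15, 2.16 and 2.34 in Normal mice. Every STAM mouse was above every Normal mouse, and the STAM groups overlapped. The difference from Normal mice was 1.10 (SE 0.19, limma adjusted p = 0.0133) in STAM-NON mice, or 2.14-fold (95% interval 1.59 to 2.88). It was 1.25 (SE 0.19, limma adjusted p = 0.00679) in STAM-INS mice, or 2.38-fold (1.77 to 3.20). STAM-INS and STAM-NON mice differed by 0.15 (95% interval -0.28 to 0.58, limma adjusted p = 0.851). G6pdx and Pgd were called in STAM-INS against Normal under each of the 25 alternative settings tried. Some of these settings could not change a member's difference. Each member had 1 probe without flagged spots, so keeping outlier spots or averaging probes had no bearing on it. Leaving out an array of the group not compared changed only the estimate of the spread and the adjustment. In STAM-NON against Normal, Pgd was called under 22 and G6pdx under 17 of them, with limma adjusted p-values up to 0.235 and 0.27. These highest values arose with the slide row as a block, where STAM-NON and Normal arrays share no row and the row is estimated from the STAM-INS arrays alone.

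Pgls encodes the lactonase that works between the dehydrogenases, and it was not called in any comparison. Its signal was 2.85, 2.63 and 2.38 in STAM-NON, 2.46, 2.54 and 2.69 in STAM-INS and 2.93, 3.04 and 2.98 in Normal mice. All 6 STAM mice were thus slightly below all 3 Normal mice, but the differences of -0.36 (limma adjusted p = 0.104) and -0.42 (limma adjusted p = 0.0793) did not pass the threshold. Pgls was called lower under 1 of the 25 alternatives in STAM-NON and 5 in STAM-INS mice. Within each mouse, the change of G6pdx from its Normal mean exceeded that of Pgls by 0.96 to 2.33 in STAM-NON and 2.21 to 2.34 in STAM-INS mice, and stayed between -0.098 and 0.075 in Normal mice. The same contrast for Pgd was 1.22 to 1.76, 1.20 to 2.03 and -0.11 to 0.13. These are differences between spots of 1 array, on which a constant scaling of the array has no bearing.

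The sequences just upstream of G6pdx and Pgd are shown because these were the members called in both comparisons with Normal mice. They are the 250 bases before the RefSeq start (build GRCm38.p6), read 5′ to 3′ on the gene's own strand, chrX:74428881-74429130 (minus strand) for G6pdx and chr4:149166706-149166955 (minus strand) for Pgd. Capitals mark the single match to any of 3 motifs searched on both strands.
G6pdx: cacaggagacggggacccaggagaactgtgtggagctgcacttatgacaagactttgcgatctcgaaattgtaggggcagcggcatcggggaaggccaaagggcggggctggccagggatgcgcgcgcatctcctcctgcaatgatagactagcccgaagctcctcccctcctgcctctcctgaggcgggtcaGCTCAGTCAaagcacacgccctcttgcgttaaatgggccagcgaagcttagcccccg
Pgd: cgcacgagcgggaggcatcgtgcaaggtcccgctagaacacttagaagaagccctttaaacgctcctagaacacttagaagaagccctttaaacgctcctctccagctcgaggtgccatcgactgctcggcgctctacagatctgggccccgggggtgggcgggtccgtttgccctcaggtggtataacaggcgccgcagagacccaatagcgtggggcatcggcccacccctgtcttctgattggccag
The match in G6pdx, GCTCAGTCA, is the antioxidant response element core TGACNNNGC read on the opposite strand, and its first base lies 57 bases before the start. That core, bound by Nrf2 with small Maf proteins at genes of the oxidative stress response, occurred in 12.4% of 32851 RefSeq windows of 300 bases. Pgd has a further window inside the gene, chr4:149166033-149166332, and there TGACATTGC began 3 bases after the start. The E-box core CACGTG, present in 7.15% of windows, occurred in 1 member, Khk, 71 bases before the RefSeq start site of its window, and that window overlaps the 5′ part of the annotated gene. The sterol response element TCACNCCAC, present in 1.24% of windows, occurred in no member. These matches describe letters in the windows only.

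Of 10 hepatocyte markers, 1 (Cps1) was called lower than Normal in STAM-NON (-0.67, limma adjusted p = 0.0297) and in STAM-INS mice (-0.67, limma adjusted p = 0.0309). The list medians were -0.29 and -0.17, beside -0.13 and -0.093 over all tested probes. On average, 1 of the 10 was above Normal in STAM-NON and 3 were in STAM-INS mice. Some markers of other liver cells were also called against Normal mice. Of 9 macrophage markers tested, 5 were called higher in STAM-NON than in Normal mice (Clec4f, Cd5l, Trem2, Gpnmb and Itgax) and 3 in STAM-INS (Clec4f, Cd5l and Trem2). Their summed level was 196.6 to 345.3 times the array's 75th percentile in STAM-NON, 162.8 to 389.4 in STAM-INS and 95.79 to 145.1 in Normal mice, and each was well above background on at least 1 array. Gpnmb was so on 3 STAM-NON arrays, 1 STAM-INS array and no Normal array. Its call rests on a fitted difference that uses Normal signals not well above background. The median difference of the list was 1.33 for STAM-NON and 1.14 for STAM-INS against Normal. Between the STAM groups (STAM-INS minus STAM-NON) it was -0.19, and no macrophage marker was called. Leukocyte markers other than those of macrophages summed to 35.05 to 215.3, 45.66 to 58.28 and 43.1 to 44.98, with 1 of 7 tested called higher (Ptprc). The highest sum was that of STAM-NON mouse 3 and was mostly S100a9 and S100a8. S100a9 read 6.98 there, beside 3.11 and 2.01 in the other STAM-NON mice. Cd3e, Cd4 and Nkg7 averaged below Normal in STAM-NON mice, without a call. Markers of dividing cells summed to 2.299 to 8.308, 3.021 to 14.48 and 1.593 to 2.108, and Aurkb was on no array well above background. Of 7 tested, 1 was called higher in STAM-NON (Ccnb1) and 2 in STAM-INS (Ccnb1 and Plk1), and the list medians against Normal were 1.66 and 1.84. Ccnb1 was well above background on only 1 Normal array, so its fitted differences also use Normal signals not well above background. Markers of bile duct cells summed to 3.796 to 9.194, 3.657 to 5.627 and 1.802 to 3.101, with 3 of 5 tested called higher in STAM-NON and 1 in STAM-INS. Of 6 endothelial markers, 1 (Lyve1) was called higher in STAM-NON, where 2 others (Kdr and Clec4g) lay wholly below Normal without a call. The median difference of that list was 0.19 in STAM-NON, and its sums were 53.24 to 74.23, 38.18 to 73.43 and 68.5 to 76.25. No stellate cell, erythroid or adipose marker was called against Normal. The 8 stellate cell and fibroblast markers summed to 86.64 to 141.6, 67.04 to 85.62 and 71.84 to 81.75. Their median difference from Normal was 0.76 in STAM-NON, where 7 of 8 averaged above Normal. Of these, 3 (Col1a1, Col1a2 and Col3a1) lay wholly above it. In STAM-INS the median was 0.31, with 5 of 8 above. Between the STAM groups (STAM-INS minus STAM-NON) it was -0.59, with 0 of 8 above 0 and no call. The adipose markers did not share a direction. Their sum of 26.79 to 96.23, 23.55 to 158.2 and 194.7 to 391.6 was mostly Car3, which read 4.72 to 6.58 in STAM-NON, 4.55 to 7.30 in STAM-INS and 7.60 to 8.61 in Normal mice, whereas Cfd averaged -0.46, -1.61 and -1.89. Adipoq was well above background on 2 STAM-NON arrays, 1 STAM-INS array and no Normal array, and Lep on none. Of the pancreatic markers, Cela1 was called higher in both STAM groups and Ctrb1 lower in STAM-NON. The part of these cells in the G6pdx, Pgd and Sord differences was not tested. In RNA from liver tissue, a change in how many cells of a type are present and a change in RNA per cell cannot be told apart.

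The 5 genes whose deviations over the 9 arrays were nearest to those of G6pdx, among 13385 other genes, were Fcgr1, Smim3, Mpeg1, Dock2 and Cpne8, with root mean square differences of 0.221 to 0.253. Fcgr1 encodes an Fc receptor of macrophages, Mpeg1 a pore-forming protein of macrophages, and Dock2 a motility regulator of blood cells. No role is given here for Smim3 or Cpne8. All 5 averaged above Normal, by 1.14 to 1.71 in STAM-NON and 1.57 to 1.90 in STAM-INS mice, as G6pdx did. The cell types behind this likeness were not tested. Pgd lay farther from G6pdx, at 0.374, and was the nearest of the other 8 members. The genes nearest to Tkt were Dnase1l1, Zfp426, Stt3b, Supt5 and Rnf185 (0.0553 to 0.0818), and those nearest to Khk were Pnpla7, Rnf121, Cd302, Gbe1 and Ccm2l (0.121 to 0.147). Among the latter, Gbe1 encodes the branching enzyme of glycogen synthesis. The measure is over 9 arrays that share 3 groups, so it is a description.

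No gene of the non-oxidative branch was called in any comparison. Tkt encodes transketolase, which moves 2-carbon units between sugar phosphates, and its signal was 5.87, 5.69 and 5.53 in STAM-NON, 5.73, 5.80 and 5.91 in STAM-INS and 5.63, 5.44 and 5.59 in Normal mice. The STAM-INS mice were all just above the Normal mice and the STAM-NON mice overlapped with both. The differences from Normal were 0.14 (95% interval -0.14 to 0.43) and 0.26 (-0.020 to 0.55), with limma adjusted p-values of 0.421 and 0.18. With quantile normalisation the STAM-INS difference was 0.46 and was called (limma adjusted p = 0.0369), and the methods' t-test without adjustment also called it.

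Taldo1 encodes transaldolase, which moves 3-carbon units, and its differences from Normal mice were nearest to 0 among the 9 genes. It read 6.92, 6.70 and 6.46 in STAM-NON, 6.50, 6.79 and 6.69 in STAM-INS and 6.60, 6.73 and 6.71 in Normal mice, and all 3 groups overlapped. Its differences were 0.012 for STAM-NON against Normal (95% interval -0.32 to 0.34), -0.033 for STAM-INS against STAM-NON (-0.36 to 0.29) and -0.021 for STAM-INS against Normal (-0.35 to 0.31).

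Rpe encodes ribulose-phosphate epimerase and Rpia ribose 5-phosphate isomerase, the enzymes that share the ribulose 5-phosphate released by the oxidative branch. Rpe read 0.42, 1.07 and 0.73 in STAM-NON, 0.76, 0.95 and 1.02 in STAM-INS and 1.31, 1.21 and 1.29 in Normal mice. Every STAM mouse was below every Normal mouse, and the differences were -0.53 (limma adjusted p = 0.0615) and -0.36 (limma adjusted p = 0.174). Rpia read -0.16, -0.52 and 0.38 in STAM-NON, -0.10, 0.28 and 0.060 in STAM-INS and -0.87, -0.44 and -0.50 in Normal mice. All STAM-INS mice were above all Normal mice with STAM-NON mouse 2 within the Normal range, and the differences of 0.50 and 0.68 gave limma adjusted p-values of 0.158 and 0.0847. Neither gene passed the threshold in the main setting. Of the 25 alternatives, Rpe was called lower under 4 in STAM-NON and 1 in STAM-INS mice, and Rpia higher under 1 and 4.

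For fructose handling, Khk encodes ketohexokinase, which phosphorylates fructose. It read 7.29, 7.92 and 7.88 in STAM-NON, 7.72, 8.26 and 8.35 in STAM-INS and 7.58, 7.95 and 8.05 in Normal mice. The groups overlapped. The STAM-INS mean was the highest and exceeded STAM-NON by 0.41 (95% interval -0.13 to 0.95, limma adjusted p = 0.644). This rested on STAM-INS arrays 2 and 3, which lay in the other row of the slide. They exceeded the STAM-NON mean by 0.61, whereas STAM-INS array 1, which shared a row with the STAM-NON arrays, exceeded it by 0.026. The part of slide position in this difference was not tested.

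Sord (chr2:122234839-122265337) encodes sorbitol dehydrogenase, which oxidises sorbitol to fructose in the last step of the polyol pathway. It read 7.43, 7.77 and 6.95 in STAM-NON, 7.26, 6.85 and 7.43 in STAM-INS and 8.05, 7.93 and 8.07 in Normal mice. All 6 STAM mice were below all 3 Normal mice. STAM-INS mice were lower than Normal mice by 0.84 on the log2 scale (7.18 ± 0.30 against 8.02 ± 0.078, SE 0.22, limma adjusted p = 0.0423), or 1.79-fold lower, and the STAM-NON difference of -0.63 (SE 0.22, limma adjusted p = 0.0827) missed the threshold, which it passed under 2 of the 25 alternatives. The difference between STAM-INS and STAM-NON was -0.20 (95% interval -0.71 to 0.31). The call in STAM-INS mice held in 11 of the 25 alternative settings and its direction in all of them, with values from -1.01 to -0.64. It was lost, with limma adjusted p-values of 0.0551 to 0.132, on leaving out STAM-NON array 1, any STAM-INS array or any Normal array. It was also lost with quantile normalisation (0.0754), the percentile of detected probes (0.0547) and the spike-ins (0.107).

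By overlap alone, 5 of 9 genes separated STAM-NON from Normal mice completely, 2 higher (G6pdx and Pgd) and 3 lower (Pgls, Rpe and Sord), where 41.2% of tested probes did so (13.2% higher and 28% lower). For STAM-INS against Normal it was 7 of 9, with 4 higher (G6pdx, Pgd, Tkt and Rpia) and 3 lower (Pgls, Rpe and Sord), against 44% (15.1% and 29%). For STAM-INS against STAM-NON it was 1 of 9, G6pdx, against 12.2% (7.24% higher and 4.92% lower). The comparisons with Normal mice share the same 3 Normal arrays and are not independent of each other. Averaged over G6pdx and Pgd, the change from the Normal mean was 1.47, 0.74 and 1.44 in the STAM-NON mice and 1.54, 1.69 and 1.41 in the STAM-INS mice. Averaged over the other 5 pentose phosphate genes, it was 0.005, -0.063 and -0.082 in STAM-NON and -0.11, 0.094 and 0.099 in STAM-INS mice. This grouping was made after the values were seen and is given without a test.

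**Figure D2:**
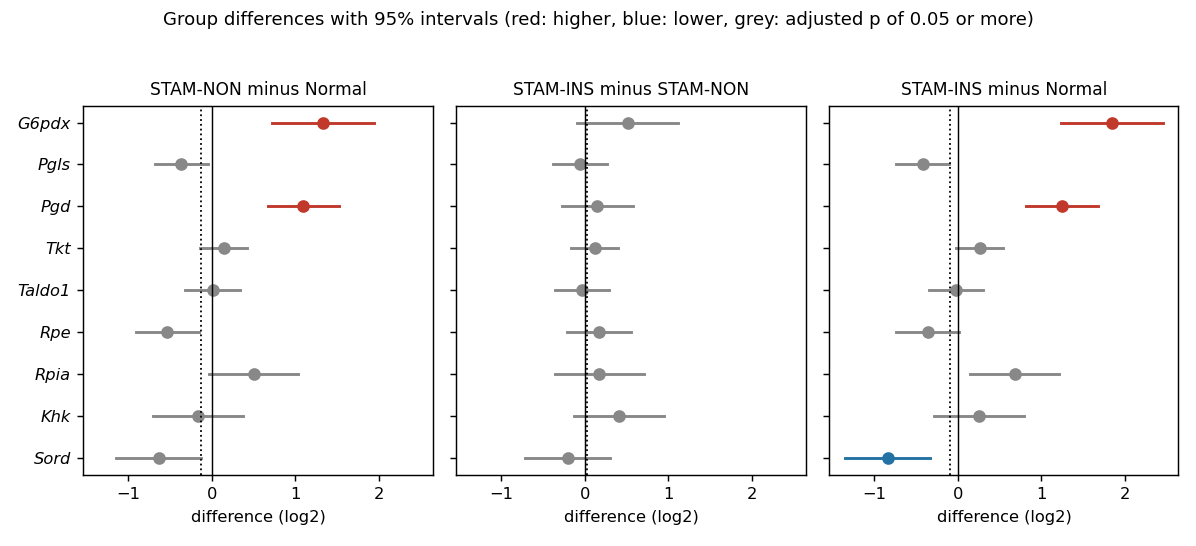
Difference in centred log2 signal (horizontal axis, log2 units) for each of the 9 genes in the 3 comparisons, with the limma estimate as a dot and its 95% interval as a line (3 mice per group), coloured where the adjusted p was below 0.05. The solid vertical line is 0 and the dotted one the median over all 26277 tested probes. G6pdx and Pgd lie to the right in both comparisons with Normal mice, Sord lies to the left, and no gene is called between the STAM groups.

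The genes around these enzymes were taken as 5 lists, and their counts are to be read beside the 16.1% of tested probes called in STAM-NON and the 13.9% called in STAM-INS against Normal. Their calls were recomputed under 24 alternatives, or 23 for Mthfd2 and Aldh1l2. Of 12 further genes of pentose phosphate and ribose metabolism, 9 were tested, and in STAM-NON against Normal none was called higher and 3 were called lower. Among them were Dera, the deoxyribose-phosphate aldolase (-1.06, limma adjusted p = 0.0101), and Shpk, the sedoheptulose kinase (-0.85, limma adjusted p = 0.0214). The third was H6pd, which oxidises glucose 6-phosphate inside the endoplasmic reticulum (-0.63, limma adjusted p = 0.0121). Dera, Shpk and H6pd were called under 21, 15 and 19 of the alternatives. H6pd read 5.40 to 5.60 in STAM-NON, 5.80 to 5.90 in STAM-INS and 6.06 to 6.19 in Normal mice, so the 3 groups did not overlap and ran opposite to cytosolic G6pdx in both comparisons with Normal mice. Its STAM-INS mean exceeded that of STAM-NON by 0.35 (limma adjusted p = 0.468) and stayed below Normal by 0.28 (limma adjusted p = 0.1). Dera was also called lower in STAM-INS mice (-1.02, limma adjusted p = 0.00756), as it was under 23 of the alternatives. The list median was -0.31 in STAM-NON and -0.23 in STAM-INS against Normal. Rbks, the ribokinase, differed by -0.21 in STAM-NON and -0.36 in STAM-INS mice and was not called.

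All 12 genes on the fructose and polyol list were tested. Akr1b3, the aldose reductase that precedes Sord in the polyol pathway, was higher in STAM-NON (0.76, limma adjusted p = 0.0303) and in STAM-INS mice (0.76, limma adjusted p = 0.0321). It read 2.44, 1.83 and 2.17 in STAM-NON, 2.06, 2.41 and 1.97 in STAM-INS and 1.27, 1.53 and 1.34 in Normal mice, with no overlap between STAM and Normal mice, and the call held under 12 of the 24 alternatives in STAM-NON and 11 in STAM-INS mice. Akr1b10, another aldo-keto reductase, was called higher in STAM-NON (1.06, limma adjusted p = 0.046), a call kept under 10 alternatives. In STAM-INS against Normal, the glucose and fructose transporter gene Slc2a2 (-0.73, limma adjusted p = 0.0222) and the urate transporter gene Slc2a9 (-0.97, limma adjusted p = 0.0391) were called lower, under 15 and 11 of the alternatives. Tkfc, the triose kinase that acts after Khk, was not called, at 0.32 in STAM-NON and 0.37 in STAM-INS against Normal. List medians were -0.13 and -0.074.

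Among genes for other sources of NADPH, 8 were tested. Me1, the cytosolic malic enzyme, differed by 0.021 in STAM-NON and 0.39 in STAM-INS against Normal and was not called. Mthfd2 of mitochondrial folate metabolism was on no Normal array well above background. In the main setting its level was higher by at least 2.56-fold in STAM-NON (limma adjusted p = 0.0216). The bound was at least 2.52-fold in STAM-INS mice (limma adjusted p = 0.0214), and calls held under 14 of 23 alternatives in each. Over the alternatives its fitted log2 difference went down to 0.43 in STAM-NON and 0.42 in STAM-INS mice, less than these bounds. Its mitochondrial partner Aldh1l2 was well above background on 1 STAM-NON array, 3 STAM-INS arrays and no Normal array. Its fitted difference between STAM-INS and Normal mice was called (limma adjusted p = 0.02, and up to 0.334 over the alternatives, with a call under 16 of 23), but the bound on it was only at least 1.10-fold. The p-values of both genes belong to fitted differences that use Normal signals not well above background. For the bounds, a Normal array entered with the lowest signal of any probe well above background there, or with the probe's own signal where that was greater. The cytosolic counterpart Aldh1l1 was lower in STAM-NON mice (-0.62, limma adjusted p = 0.0354), a call kept under 9 of 24 alternatives.

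Of 12 genes of glutathione and thioredoxin metabolism, 1 was called higher and 1 lower in each comparison with Normal mice, a share close to the background of 16.1% and 13.9%. Srxn1, the sulfiredoxin that repairs peroxiredoxins, rose by 0.96 in STAM-NON (limma adjusted p = 0.0328) and 1.09 in STAM-INS mice (limma adjusted p = 0.0236), called under 14 and 15 of the alternatives. Prdx6, a peroxiredoxin, was lower in STAM-NON (-0.60, limma adjusted p = 0.0263) and STAM-INS mice (-0.61, limma adjusted p = 0.0258), called under 12 and 13. Of 14 sugar-responsive and lipogenic genes, Mlxipl, encoding the carbohydrate-sensing factor ChREBP, was lower in STAM-NON (-1.18, limma adjusted p = 0.00831) and in STAM-INS mice (-0.62, limma adjusted p = 0.0425), called under 21 and 12. In STAM-INS against Normal, the lipogenic genes Fasn (2.46, limma adjusted p = 0.0198), Acly (1.14, limma adjusted p = 0.0285) and Elovl6 (1.02, limma adjusted p = 0.033) were higher, and Txnip, a glucose-induced gene, was lower (-1.97, limma adjusted p = 0.0113). Fasn was called under 19, Acly under 16, Elovl6 under 15 and Txnip under 23 of the alternatives. Elovl6 and Mlxipl in STAM-INS mice were named after their values were seen. No gene of the 5 lists was called between STAM-INS and STAM-NON mice by limma.

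**Figure D3:**
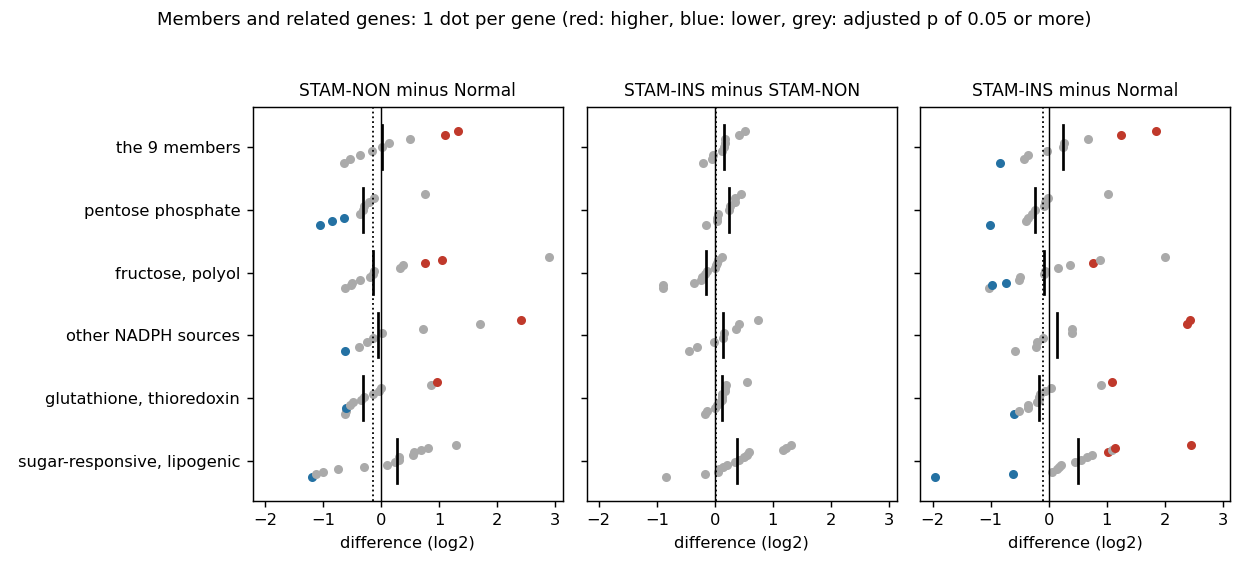
Difference in centred log2 signal (horizontal axis, log2 units) of the 9 genes and of the tested genes of 5 related lists in the 3 comparisons, 1 dot per gene, coloured where the adjusted p was below 0.05. The short black lines are list medians and the dotted line is the median over all tested probes. Mthfd2 and Aldh1l2 are drawn at their fitted values, although their Normal arrays were not well above background, and the middle panel holds no coloured dot.

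The scaling of the arrays shifted the median over all tested probes in STAM-NON against Normal from -0.13 to -0.29 with centring on the array median and to 0.18 with centring on the E1A spike-ins, which are control transcripts added to each sample. G6pdx differed by 1.10 to 1.64 in STAM-NON and by 1.56 to 2.01 in STAM-INS against Normal over 4 other scalings and the normexp background correction, and was called under each. Pgd differed by 0.95 to 1.41 and by 1.08 to 1.41 and was also called under each. Sord stayed negative under each, from -0.79 to -0.32 and from -1.01 to -0.64. Khk and Taldo1 in STAM-NON, Taldo1 in STAM-INS and Tkt in STAM-NON changed sign with the scaling. Among the related genes, 4 were called higher and 6 lower in STAM-NON against Normal, which became 8 and 2 with the spike-ins and 1 and 6 with the array median. Over all tested probes, 1655 were called higher and 2565 lower, which became 2737 and 458 with the spike-ins.

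**Figure D4:**
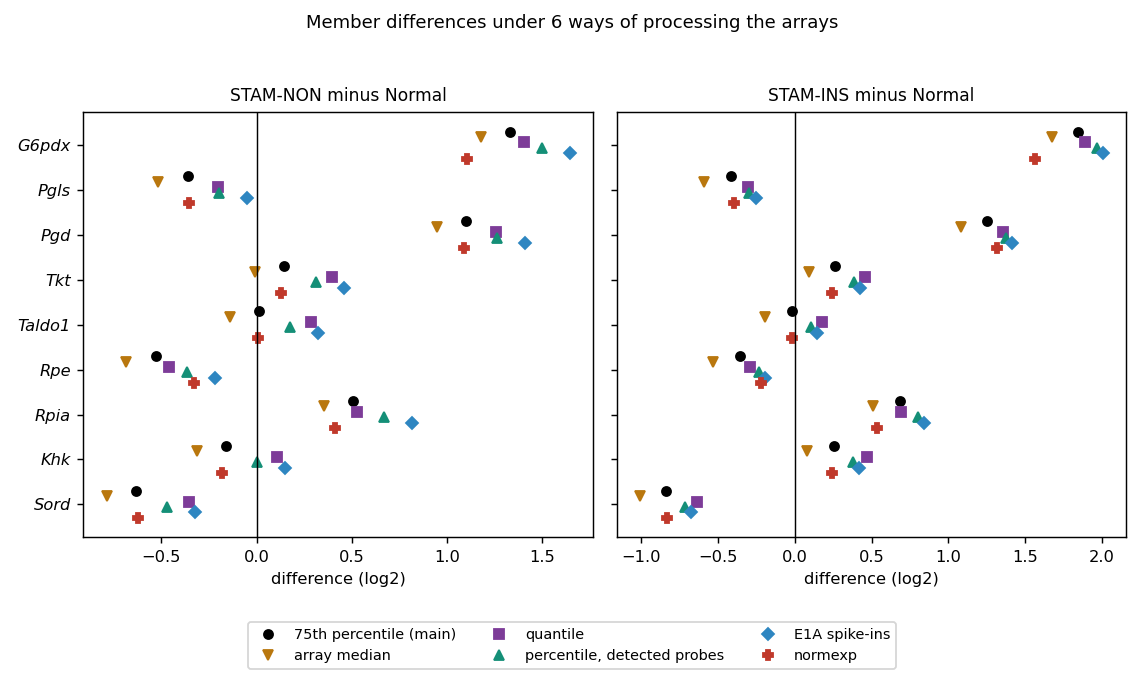
Difference in centred log2 signal (horizontal axis, log2 units) of each of the 9 genes from Normal mice in STAM-NON and STAM-INS mice, under the main setting, 4 other scalings and the normexp background correction (symbols, 3 mice per group). G6pdx and Pgd lie right of 0 and Sord left of 0 under all 6, and symbols of Khk and Taldo1 fall on both sides of 0 in STAM-NON mice.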

How the data were processed

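Total liver RNA of 9 mice was labelled with Cy3 and hybridised to Agilent 8x60K arrays. The deposited files give, for each spot, an intensity from Feature Extraction 11.5.1.1, background-subtracted and not normalised between arrays. Their build is mm9. Probes were named through a RefSeq table of GRCm38.p6, which also gave promoter windows. Flagged outlier spots were left out (161 to 217 per array) and no spot was saturated. The processed intensity was put on the log2 scale, centred on each array's 75th percentile over non-control spots and fitted with limma 3.58.1 in R 4.3.3 over all 9 arrays in 1 model, two-sided. A probe was tested where a share of 0.5 or more of its spots stood well above background on all arrays of some group, which left 26277 probes. Where a gene had several tested probes, the brightest stood for it. All 9 members are named in each comparison, and of each related list the genes past the threshold with the largest difference, at most 3, with the fixed relatives Tkfc, Akr1b3, H6pd, Rbks and Me1. The values of a further fixed relative are not reported here. The members and lists were chosen with earlier results of these data known. Scaling, background correction, filter, blocks and left-out arrays were varied. The normexp background correction used median spot and background signals with an offset of 50. Likeness between genes was the root mean square difference of their deviations from their own means. The code was tested on simulated data. The number of arrays limits the precision.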

Additional observations from a re-analysis of the deposited data

How the results depend on the processing

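Over the 25 alternatives, 196 of 225 results for single members kept direction and side of the threshold in STAM-NON against Normal, 217 in STAM-INS against STAM-NON and 193 in STAM-INS against Normal. These counts include settings that could not change a member's difference. The count of members called in STAM-NON against Normal, 2 in the main setting, was 0 without a filter on dim probes, 0 with the slide row as a fixed block, 0 by the methods' t-test with Benjamini-Hochberg adjustment and 5 with the slide row as a random block (consensus correlation -0.151). It ranged from 1 to 5 on leaving out single arrays, with 5 without STAM-NON array 2 and 1 without STAM-NON array 1 or 3 or any Normal array. In STAM-INS against Normal the count of 3 was 5 with only the 6 arrays of the groups compared, 5 with the random block, 7 by the methods' t-test without adjustment, and 2 to 5 on leaving out single arrays. Related genes called in STAM-NON against Normal, 10 in the main setting, were 0 without a filter, 5 with only 6 arrays, 0 with the fixed row block, 27 with the random block and 3 to 18 with an array left out. In STAM-INS against Normal, 13 became 0 without a filter, 21 with the random block and 2 to 16 with an array left out. In STAM-INS against STAM-NON no member was called under any of the 25 alternatives, and no related gene under those it was counted in, which left out the methods' t-test and the mean over a gene's probes. Without a filter 55681 probes are adjusted over. The cause of the other changes was not tested. Same-numbered arrays correlated in their deviations with r from -0.288 to 0.149, and 2 of 6 arrays per comparison correlated best with their own number. With 3 arrays per group this cannot decide whether the numbers paired the mice, and the labels do not say. A replicate block left 2, 0 and 2 members called, and 6 related genes in STAM-NON against Normal. Signs of small differences changed as follows. In STAM-NON against Normal, Khk was 0.11 with quantile normalisation, 0.0025 with the percentile of detected probes, 0.15 with the spike-ins and 0.42 with the fixed row block (-0.30 to 0.043 on leaving out arrays). Tkt was -0.0081 and Taldo1 -0.14 with the array median, and Taldo1 was -0.013 with the random block (-0.10 to 0.13 on leaving out arrays). In STAM-INS against STAM-NON, Tkt was -0.032 with the spike-ins, Rpia -0.0027 with the fixed and Taldo1 0.00059 with the random row block. Leaving out arrays gave -0.18 to 0.060 for Pgls, -0.15 to 0.081 for Taldo1, -0.034 to 0.42 for Rpia and -0.016 to 0.33 for Pgd there. In STAM-INS against Normal, Taldo1 was 0.18 with quantile normalisation, 0.10 with the percentile of detected probes, 0.14 with the spike-ins and 0.058 with the fixed row block (-0.084 to 0.058 on leaving out arrays). Each member rests on 1 spot per array, and the E1A spike-ins on 7 probes.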
